A study of Mus musculus with 24 samples.

Results

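Mouse embryonic stem (ES) cells were profiled by RNA sequencing in 6 genotypes, and 10 of the 37310 gene entries in the deposited tables are described here: Zfp352, Sp110, A530040E14Rik, Arg2, Abcb5, Spz1, Cml2, Tdpoz4, B020004J07Rik and Gm8994. They were chosen by name as genes of the 2-cell embryo that lie outside its large repeated families. The genotypes were wild type (WT), a deletion of Smchd1 (Smchd1 KO), a deletion of Dux (Dux KO), a deletion of Smchd1 plus Dux (Double KO), a triple knockout of the Tet genes (Tet-TKO), and that triple knockout plus a deletion of Smchd1 (quadKO). Each genotype had 3 replicates with separately isolated RNA, and those of WT and Smchd1 KO were each sequenced in 2 technical runs, which were averaged and counted once. All cells were grown without feeder cells on gelatin in serum with LIF. The parental line and the number of clones behind a genotype are not given in the sources used here.

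A small share of ES cells in culture passes through a state that resembles the 2-cell embryo, in which the transcription factor DUX switches on a set of genes that is otherwise silent. DUX binds a homeodomain motif, often within retroviral repeats that act as promoters, and its targets include tandem families such as Zscan4 and Usp17 together with single genes scattered over the genome. SMCHD1 is a chromatin protein that keeps repeated and clustered loci silent, the Dux array among them. The TET enzymes oxidise 5-methylcytosine, and Smchd1 is deleted in their absence in quadKO. In bulk RNA a higher level in more cells and a higher level per cell cannot be told apart, and that holds for every comparison here.

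Tet-TKO and quadKO share one deposited table, and the other 4 genotypes share another that was scaled separately, so comparisons stay within a table. Levels are in CPM, counts per 1e6 counts of an effective library size, and errors are SD with n = 3. Gene reads per library ran from 11.4e6 to 74.4e6. The reads of the 10 genes in a genotype can be few, and beside a genotype with no reads the limit is 3 reads over its replicates, which was 0.0694 CPM for Dux KO and 0.0608 CPM for Double KO, for counting error only. The replicates within WT, and those within Tet-TKO, were about as alike as technical runs, so p-values measure only the spread of these samples. The other genotypes were looser on the noise measure that paired the Smchd1 KO runs. Between WT replicates that measure was at most 2.19, and between Tet-TKO replicates at most 1.70. Its lowest and highest values were 16.4 and 31.7 for Dux KO, and 17.5 and 32.3 for Double KO. Smchd1 KO had 3.34 and 13.6, and quadKO 3.82 and 11.1. The limma fit gives all genotypes of a table a common spread, which does not reflect these differences. Where Smchd1 was intact its transcript was at 206 ± 2.28 CPM (WT) and 193 ± 19.6 CPM (Dux KO), and where it was deleted at 60.4 ± 15.3 CPM (Smchd1 KO) and 79.0 ± 8.48 CPM (Double KO). In the other table it was at 155 ± 5.46 CPM in Tet-TKO and 23.4 ± 14.7 in quadKO. The entry named Dux did not check its deletion. Dux KO held 6 reads of it, all in replicate 1 (0.447 CPM), and Double KO held 4, all in replicate 2 (0.245 CPM), and both values were above every WT replicate (0.0410, 0.113 and 0.141 CPM). The other 4 libraries without Dux held none. Which part of the locus was deleted is not given in the sources used here, so genotypes are named as labelled, and the results without each of these 2 libraries are given beside the counts. Summed over the 10 genes, the library labelled Dux KO replicate 1 held 0.597 CPM and the library labelled Double KO replicate 2 held 0.612 CPM, both below every WT replicate (4.88 to 5.29 CPM). Summed over 9 ES cell markers that include Pou5f1, Nanog and Sox2, replicates lay between 2455 and 4789 CPM.

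The names of some genes go against the label under which they were grouped. B020004J07Rik is named Pramel17 by RefSeq, a member of the large Prame-like family, and Tdpoz4 belongs to the Tdpoz gene cluster. Gm8994 is named Eif4a3l1 and Cml2 is named Nat8f2, so both have a close relative elsewhere. As a measure of reads that could fall on another gene, the share of 50-base words in the exons (GENCODE M21) that also occur in another gene was 0% for Arg2, Abcb5 and Spz1. It was 7.09% for Zfp352, 13.4% for B020004J07Rik and 17.9% for Cml2, and it reached 29.6% for A530040E14Rik, 36.0% for Sp110 and 41.2% for Tdpoz4. The levels of the last 3 are therefore uncertain to that degree, and the share could not be counted for Gm8994. A530040E14Rik is a long non-coding RNA that overlaps A530032D15Rik and C130026I21Rik on the other strand. Whether strand was used in counting is not given in the sources used here, so its reads and theirs cannot be told apart. Sp110 likewise overlaps G530012D18Rik, and Arg2 overlaps Vti1b and Gm48780, on the opposite strand.

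The sequence before the gene start is shown for 4 of the genes because a stretch of it is shared between genes on different chromosomes. RefSeq (GRCm38.p6) holds an upstream window for 9 of the 10 genes. Longest runs in common were compared between the 250 bases before each start, and 3 genes on 3 chromosomes held the same 45 bases next to the start: Sp110, B020004J07Rik and Gm8994. Capitals mark that run in these 3 windows. In the window of Zfp352 capitals mark each copy of the 15 bases that are its longest run in common with Sp110. All 4 are written 5′ to 3′ on the strand of the gene. They lie at chr1:85603892-85604141 (minus strand) for Sp110, chr4:101844023-101844272 (minus strand) for B020004J07Rik, chr6:136327289-136327538 (plus strand) for Gm8994 and chr4:90218570-90218819 (plus strand) for Zfp352.
Sp110: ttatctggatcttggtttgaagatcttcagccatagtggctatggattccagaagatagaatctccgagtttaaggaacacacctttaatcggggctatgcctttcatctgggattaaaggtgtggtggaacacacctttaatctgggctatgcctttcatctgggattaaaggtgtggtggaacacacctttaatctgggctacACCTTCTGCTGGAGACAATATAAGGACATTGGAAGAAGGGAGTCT
B020004J07Rik: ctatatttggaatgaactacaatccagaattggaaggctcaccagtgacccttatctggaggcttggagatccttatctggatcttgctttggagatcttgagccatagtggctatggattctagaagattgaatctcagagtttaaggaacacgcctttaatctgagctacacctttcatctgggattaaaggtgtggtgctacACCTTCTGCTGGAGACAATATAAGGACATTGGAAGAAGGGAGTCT
Gm8994: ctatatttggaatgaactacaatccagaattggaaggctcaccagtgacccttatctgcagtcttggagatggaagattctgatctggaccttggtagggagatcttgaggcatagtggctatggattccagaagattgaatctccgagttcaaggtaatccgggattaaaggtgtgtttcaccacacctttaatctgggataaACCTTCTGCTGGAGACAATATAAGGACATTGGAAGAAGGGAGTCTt
Zfp352: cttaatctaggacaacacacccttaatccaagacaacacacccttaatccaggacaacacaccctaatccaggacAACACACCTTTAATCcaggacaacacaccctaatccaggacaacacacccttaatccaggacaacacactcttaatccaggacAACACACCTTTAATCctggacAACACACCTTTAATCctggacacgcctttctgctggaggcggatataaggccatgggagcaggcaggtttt

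The run ends at the gene start in Sp110 and B020004J07Rik and 1 base before it in Gm8994. Of 27025 genes with a window, 17 (0.0629%) held the 45 bases. B020004J07Rik and Gm8994 also shared a run of 58 bases at the far end of their windows. Copies of the 15-base run of Zfp352 stand, in lower case above, in the window of Sp110 too, and on either strand 22 genes (0.0814%) held it. Sp110 has a second RefSeq window nearer to the GENCODE start that holds neither run, and gene counts do not say which start was used. The core of the homeodomain motif ascribed to DUX, GATTNAATC, searched on both strands, was in the windows of B020004J07Rik and Gm8994 and of 77 genes in all (0.2849%). The longest run of Zfp352 that also occurs, on either strand, in the other 3 printed windows was the 14 bases cacacctttaatcc, which overlap the 15-base run and were in 39 genes in all (0.1443%). The set of 4 was picked after these windows were seen. These matches describe letters and say nothing of binding.

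Each of the 10 genes was higher in Smchd1 KO than in WT, by 4.44-fold to 13.8-fold in mean CPM, and each was lower in Double KO than in Smchd1 KO. In Dux KO 7 of the 10 had no reads at all. The genes are taken in turn by what they encode, with replicates 1, 2 and 3 in that order. Replicate numbers of Smchd1 KO are names only.

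**Figure D1:**
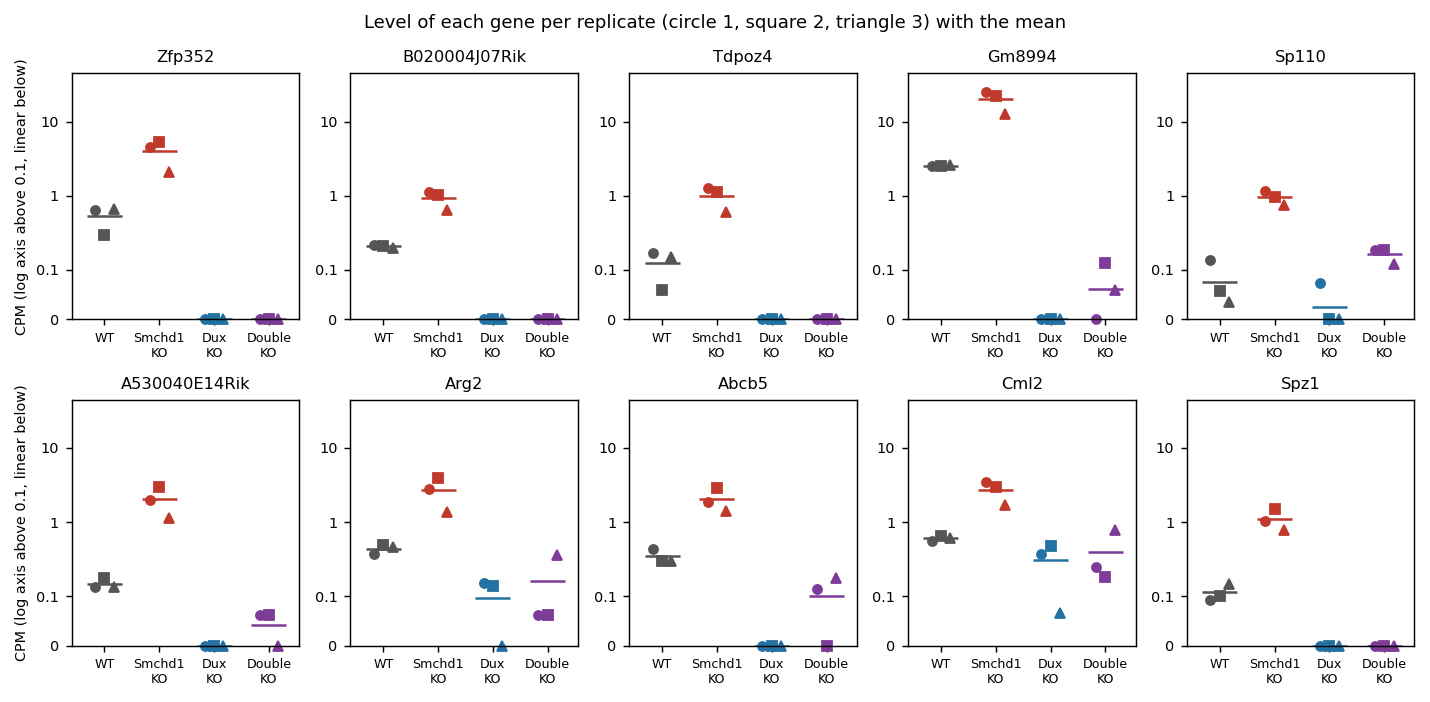
Level in CPM of each gene in the 4 genotypes that carry all Tet genes; points are replicates 1 (circle), 2 (square) and 3 (triangle), bars are means, and the axis is logarithmic above 0.1 CPM and linear below. All 3 Smchd1 KO points lie above all WT points for every gene, and Zfp352, B020004J07Rik, Tdpoz4 and Spz1 lie at 0 in all 6 samples without Dux.

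Among the regulators, Zfp352 (chr4:90218820-90225702, GENCODE M21 on GRCm38) is a zinc finger gene that arose by retroposition and marks the 2-cell stage. WT replicates held 0.634, 0.295 and 0.655 CPM of it, and those of Smchd1 KO held 4.59, 5.33 and 2.06 CPM. The lowest Smchd1 KO replicate lay above the highest of WT, and no read fell on Zfp352 in any Dux KO or Double KO replicate. The fitted change from WT to Smchd1 KO was 2.06 ± 0.27 (SE) on the log2(CPM + 0.5) scale, with adjusted p = 0.0024 (limma). This fit shares its spread over the 4 genotypes that carry all Tet genes. Zfp352, Spz1, Tdpoz4 and B020004J07Rik were at 0 in every Dux KO and Double KO replicate, which add no spread. The SE and p-values of these genes therefore do not measure the spread of WT and Smchd1 KO alone. For Zfp352, Double KO was at least 68.6-fold lower than Smchd1 KO, and Dux KO at least 7.64-fold lower than WT.

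Sp110 (chr1:85576899-85598817) encodes a nuclear body protein of the SP100 family that interferon induces. Its level was 0.134, 0.0582 and 0.0354 CPM in WT against 1.17, 0.957 and 0.743 CPM in Smchd1 KO. It was 12.6-fold higher in mean CPM there, and the groups did not overlap (log2 change 1.33 ± 0.17 SE, limma adjusted p = 0.0017). Dux KO held 1 read and Double KO held 8, spread over its replicates as 3, 3 and 2. Sp110 was thus the one gene of the 10 whose Double KO replicates (0.186, 0.183 and 0.119 CPM) all lay above those of Dux KO (0.0746, 0 and 0 CPM), which held for 3.05% of tested genes. The counting interval of that ratio, 0.940 to 311, includes 1, and the change was not called (log2 change 0.34 ± 0.17 SE, limma adjusted p = 0.55). Double KO was 5.87-fold lower than Smchd1 KO.

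Spz1 (chr13:92574636-92576172), a leucine zipper transcription factor known from spermatogenesis, had 0.0932, 0.101 and 0.148 CPM in WT. In Smchd1 KO it had 1.04, 1.49 and 0.782 CPM, all above WT, which is 9.68-fold higher in mean CPM (log2 change 1.36 ± 0.17 SE, limma adjusted p = 0.0019). Neither Dux KO nor Double KO held a read of it. The 23 reads behind its WT level allow only a bound of 1.60-fold for the drop from WT to Dux KO.

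Gene families of the early embryo are represented by Tdpoz4 and B020004J07Rik. Tdpoz4 (chr3:93796398-93797510) encodes a protein with TRAF and POZ domains. It went from 0.168, 0.0597 and 0.148 CPM in WT to 1.28, 1.14 and 0.601 CPM in Smchd1 KO, 8.03-fold higher in mean CPM (log2 change 1.24 ± 0.19 SE, limma adjusted p = 0.0074). B020004J07Rik (chr4:101834969-101844023), the Prame-like gene, went from 0.217, 0.212 and 0.198 CPM to 1.13, 1.01 and 0.639 CPM, 4.44-fold higher (log2 change 0.99 ± 0.16 SE, limma adjusted p = 0.0128). Both were without a read in all Dux KO and Double KO replicates. Against Smchd1 KO, Double KO was at least 16.9-fold lower for Tdpoz4 and at least 16.1-fold lower for B020004J07Rik.

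Gm8994, a copy related to Eif4a3, the RNA helicase of the exon junction complex, was the gene with the most reads. WT replicates held 2.54, 2.54 and 2.57 CPM and Smchd1 KO replicates 25.4, 21.9 and 12.5 CPM. The WT values were nearly equal and every Smchd1 KO value stood above them (log2 change 2.69 ± 0.24 SE, limma adjusted p = 0.00039). Dux KO had no reads where WT had 531, which makes it at least 36.9-fold lower. This was the one gene of the 10 whose drop from WT to Dux KO passed the test (log2 change −2.61 ± 0.24 SE, limma adjusted p = 0.00088). Double KO held 3 reads against 3651 in Smchd1 KO, a ratio of 318 with a counting interval of 109 to 1543.

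The non-coding A530040E14Rik (chr1:85105946-85114035) showed the largest ratio of mean CPM, 13.8. It had 0.134, 0.178 and 0.132 CPM in WT against 2.00, 2.98 and 1.13 CPM in Smchd1 KO, with no overlap (log2 change 1.90 ± 0.23 SE, limma adjusted p = 0.0016). Dux KO had no reads and Double KO had 2. The ratio of Smchd1 KO to Double KO was 47.7, with a counting interval of 13.1 to 395.

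Of the enzymes, Arg2 (chr12:79130777-79156301) encodes the mitochondrial arginase, which splits arginine into ornithine and urea. It had 0.370, 0.490 and 0.457 CPM in WT against 2.76, 3.96 and 1.37 CPM in Smchd1 KO (6.14-fold, log2 change 1.68 ± 0.29 SE, limma adjusted p = 0.0172). Cml2 (chr6:85865422-85869158), a camello-like N-acetyltransferase, had 0.557, 0.644 and 0.606 CPM and 3.47, 2.99 and 1.72 CPM (4.53-fold, log2 change 1.51 ± 0.30 SE, limma adjusted p = 0.0363). Replicates of WT and Smchd1 KO did not overlap for either gene. Both kept some reads without Dux: Arg2 had 4 in Dux KO and 8 in Double KO, and Cml2 had 13 and 20. Cml2 in Dux KO (0.373, 0.481 and 0.0656 CPM) lay below WT in all 3 replicates, while Cml2 in Double KO (0.248, 0.183 and 0.772 CPM) overlapped WT.

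The call of Cml2 in Smchd1 KO vs WT depended on the fit. It was lost with a pseudocount of 0.1, with no filter, with quantile normalization and with WT technical run 1 alone. With the same genes tested it was also lost without any 1 of the WT replicates, Smchd1 KO replicate 1 or Smchd1 KO replicate 2. Its log2 change was 1.34 to 1.96 in all these fits. Genes of chromosome 6, which holds Cml2 and Gm8994, as a whole had a median deviation of −0.33 (log2) in Smchd1 KO replicate 2, −0.30 in Dux KO replicate 2 and −0.34 in Double KO replicate 3. Chromosome 1, which holds Sp110, A530040E14Rik and Sp140, had 0.38 in Double KO replicate 3, where Sp140 was highest, and chromosome 12, which holds Arg2 and Abcb5, had −0.23 in Dux KO replicate 1. With chromosome medians centred the log2 change of Cml2 was 1.67 with limma adjusted p = 0.077, and the other 9 genes were called.

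Abcb5 (chr12:118867824-118966421), an ATP-binding cassette transporter of the plasma membrane, had 0.440, 0.302 and 0.302 CPM in WT. Smchd1 KO had 1.85, 2.85 and 1.39 CPM, all above WT (5.84-fold, log2 change 1.54 ± 0.22 SE, limma adjusted p = 0.0038). No read fell on it in Dux KO, and Double KO had 0.124, 0 and 0.178 CPM, from 5 reads.

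Counted together, all 10 genes were called higher in Smchd1 KO vs WT at a Benjamini-Hochberg adjusted p under 0.05, where 0.648% of the 16200 genes tested were called higher. Their median log2 change was 1.53, against 0.003 over all tested genes. Of these 10, 8 entered the test only through Smchd1 KO, since a gene needed 0.5 CPM in 3 samples and only Gm8994 and Cml2 reached that without it. The count is therefore no support of its own. With no filter on low values 9 of the 10 were called (0.551% of genes), and edgeR on the recovered reads called 10 (1.1% of genes). Replicates of WT and Smchd1 KO did not overlap, with Smchd1 KO higher, for 10 of 10 genes, against 28.2% of tested genes. Over single libraries, the lowest of the 6 Smchd1 KO libraries lay above the highest of the 6 WT libraries for all 10. These libraries are technical runs of the same replicates, and the share of all genes was not counted. With the same genes tested, 6 were called without WT replicate 2 or without Smchd1 KO replicate 1, and 7 without WT replicate 1, WT replicate 3 or Smchd1 KO replicate 2. Those fits called 51 to 72 of all tested genes, higher or lower.

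Double KO was compared with Smchd1 KO to see what remained of these levels once Dux was deleted too. All 10 genes were called lower, against 2.98% of tested genes, and all 10 had replicates that did not overlap, against 16.7%. Since 8 of the 10 entered the test only through Smchd1 KO, the higher group here, these counts are no support of their own. Log2 changes ran from −1.13 in Sp110 to −5.14 in Gm8994. Without Smchd1 KO replicate 1, with the same genes tested, 9 were called, Cml2 being the one lost (log2 change −1.69, limma adjusted p = 0.051). That fit called 99 of all tested genes, higher or lower. Double KO and Smchd1 KO comparisons share the Smchd1 KO samples, so the rise and the fall given here are not independent of each other. Without the library labelled Double KO replicate 2, with the same genes tested, 10 were called, where 1386 of all tested genes were called higher or lower.

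Markers of other cell types also differed in Double KO. Summed trophoblast markers held 730, 147 and 156 CPM, with Cdx2 at 8.66, 0.550 and 1.60 CPM, and all 3 sums were above WT. None of the 6 tested trophoblast markers was called against WT, and Eomes changed the other way (log2 change −0.52). Summed endoderm markers held 1748, 406 and 215 CPM, on both sides of WT. ES cell markers summed to 2455, 3310 and 3813 CPM, below the 4331 to 4413 CPM of WT. Against Smchd1 KO, Col3a1 (log2 change 1.77) and Fn1 (0.64) of the fibroblast list were called higher and the ES cell marker Tdgf1 (−0.98) was called lower. The other 5 tested fibroblast markers and 8 tested ES cell markers were not called. The part of these markers in the lower levels of the 10 genes was not tested.

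Against WT, the samples without Dux lay lower for most of the 10 genes. In Dux KO 9 of 10 had all replicates under those of WT (23.1% of tested genes), Sp110 being the exception, and in Double KO 8 of 10 did (21%). Calls were fewer: Gm8994 alone was called lower in Dux KO (2.35% of tested genes) and in Double KO (0.889%, log2 change −2.45 ± 0.24 SE, limma adjusted p = 0.0018). On the scale with 0.5 CPM added, a gene near 0.1 CPM in WT has little room to fall. With a pseudocount of 0.1, or with edgeR on the recovered reads, Zfp352, B020004J07Rik and Abcb5 were called lower in Dux KO as well, 4 in all (2.52% and 2.19% of tested genes). In Double KO those settings called Zfp352 and B020004J07Rik beside Gm8994 (1.12% of tested genes with either). Without Double KO replicate 3 the fit called 3 of the 10 in Dux KO and 2 in Double KO, and without Smchd1 KO replicate 3 it called 2 in each. In Dux KO 2 were also called without Dux KO replicate 3 or the library labelled Double KO replicate 2, and 1 without the library labelled Dux KO replicate 1. Over all genes, with the same 16200 tested, the fit without Double KO replicate 3 called 1992 in Dux KO and 3006 in Double KO, higher or lower. The 2 of 10 in Double KO is near that share. Without Smchd1 KO replicate 3 it called 195 and 91. The last 3 fits called 2790, 1268 and 702 in Dux KO.

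**Figure D2:**
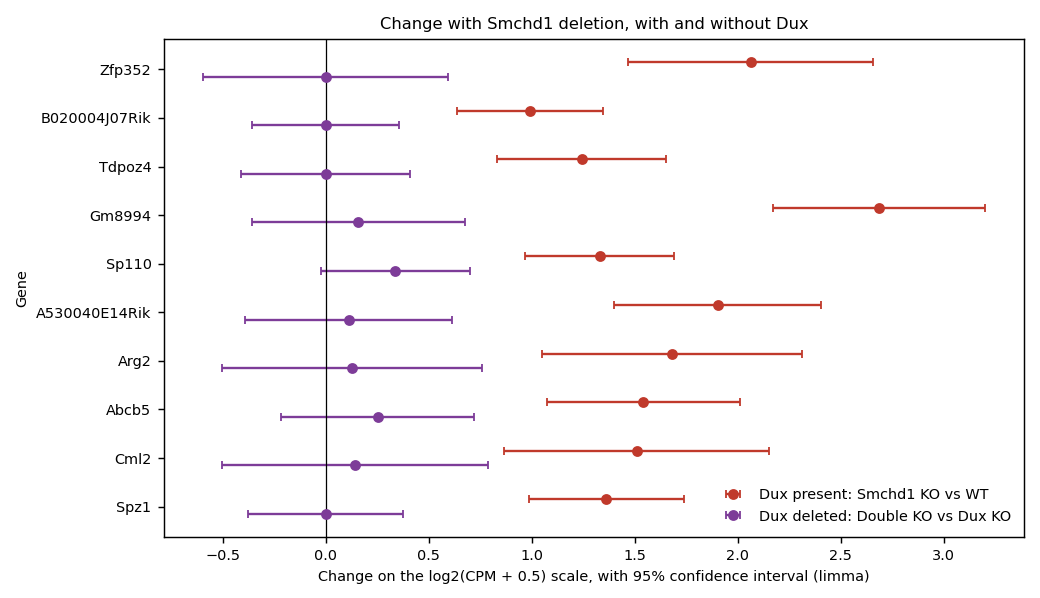
Log2 change with deletion of Smchd1 for each gene, on the log2(CPM + 0.5) scale, where Dux is present (Smchd1 KO vs WT) and where it is deleted (Double KO vs Dux KO); bars are 95% confidence intervals from limma. Changes with Dux present run from 0.99 to 2.69 and their intervals lie above 0, while those with Dux deleted run from 0.00 to 0.34 and their intervals hold 0. Zfp352, B020004J07Rik, Tdpoz4 and Spz1 had no reads where Dux is deleted, so their intervals there come from the common spread of the fit.

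Where Dux was deleted, removing Smchd1 raised none of the 10 genes past the test. Double KO vs Dux KO gave log2 changes of 0.00 to 0.34 and 0 calls, against 0.0123% of tested genes called. Only 2 of 16200 genes were called in this comparison, so 0 calls is near that share and is no result about these genes. No gene of the 10 had an unadjusted p under 0.05, and edgeR called 0 as well (0.0123% of tested genes). For Zfp352, B020004J07Rik, Tdpoz4 and Spz1 both genotypes were without reads, so no fold can be given. The 95% interval of the log2 change was −0.59 to 0.59 for Zfp352, −0.36 to 0.67 for Gm8994 and −0.50 to 0.79 for Cml2. The interval of Zfp352 comes from the common spread of the fit, to which Dux KO and Double KO add none. It is therefore no bound measured in these genotypes.

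Whether the Smchd1 effect differed between cells with and without Dux was tested as the difference of the pair of changes. With limma it was negative for all 10 genes, from −0.99 to −2.53, while edgeR turned its sign for Gm8994 (1.47) and A530040E14Rik (0.17). It was called with limma for 4 genes, against 0.358% of tested genes called lower: Gm8994 (−2.53 ± 0.34 SE, limma adjusted p = 0.0181), Zfp352 (−2.06 ± 0.39 SE, 0.0391), A530040E14Rik (−1.79 ± 0.33 SE, 0.0358) and Spz1 (−1.36 ± 0.25 SE, 0.0355). The other 6 had adjusted p of 0.0691 to 0.138. These calls belong to the scale used: a pseudocount of 0.1 (0.0556% of tested genes called) and edgeR (0.0432%) each called 0 of the 10, and so did leaving out any WT replicate, Smchd1 KO replicate 1 or 2, or Dux KO replicate 2. Without Double KO replicate 1 there was 1 call, without Smchd1 KO replicate 3 or the library labelled Dux KO replicate 1 there were 6, and without the library labelled Double KO replicate 2 there were 8. Over all genes, with the same genes tested, these fits called 19, 61, 673 and 1203 in that order, against 83 in the full fit. For the 4 genes called, Dux KO held no reads and Double KO held 0 to 3, so a ratio between these genotypes is hardly defined. For Zfp352 and Spz1 neither held a read, so the difference is the rise from WT to Smchd1 KO with its sign turned. Of the 4, all but Gm8994 entered the test only through Smchd1 KO, so these calls are no support of their own.

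Within Smchd1 KO the 10 genes varied together. Replicate 3 was the lowest of the 3 for all 10 genes, at a median of 63.0% of the genotype mean (range 50.8% to 77.8%), while it was the lowest for 36.0% of all tested genes. Summed over the 10 genes the replicates held 44.7, 44.6 and 23.0 CPM, and WT replicates held 5.29, 4.88 and 5.25 CPM. Even replicate 3 was thus above every WT replicate in each gene. The Dux transcript itself had 0.833, 0.847 and 0.410 CPM in the same replicates and 0.0410, 0.113 and 0.141 CPM in WT, so the replicate with the least Dux held the least of each gene. The 29 entries of the repeated 2-cell families summed to 179, 183 and 85.9 CPM, in the same pattern.

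Markers of other cell types moved with these replicates as well. Summed over 9 endoderm entries (1 of them, the second of 2 entries named Dab2, at 0 throughout), Smchd1 KO held 783, 549 and 1881 CPM, against 569 to 591 in WT. Over 7 trophoblast markers it held 87.4, 101 and 183 CPM, against 69.2 to 73.9 in WT, with the defining marker Cdx2 at 0.104 to 0.290 CPM in Smchd1 KO and 0.791 to 1.31 CPM in WT. Over 8 fibroblast markers it held 841, 1026 and 804 CPM, against 935 to 970 in WT. Replicate 3 was thus the highest in the first 2 lists and the lowest for the 10 genes, and the part of these markers in the result was not tested.

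**Figure D3:**
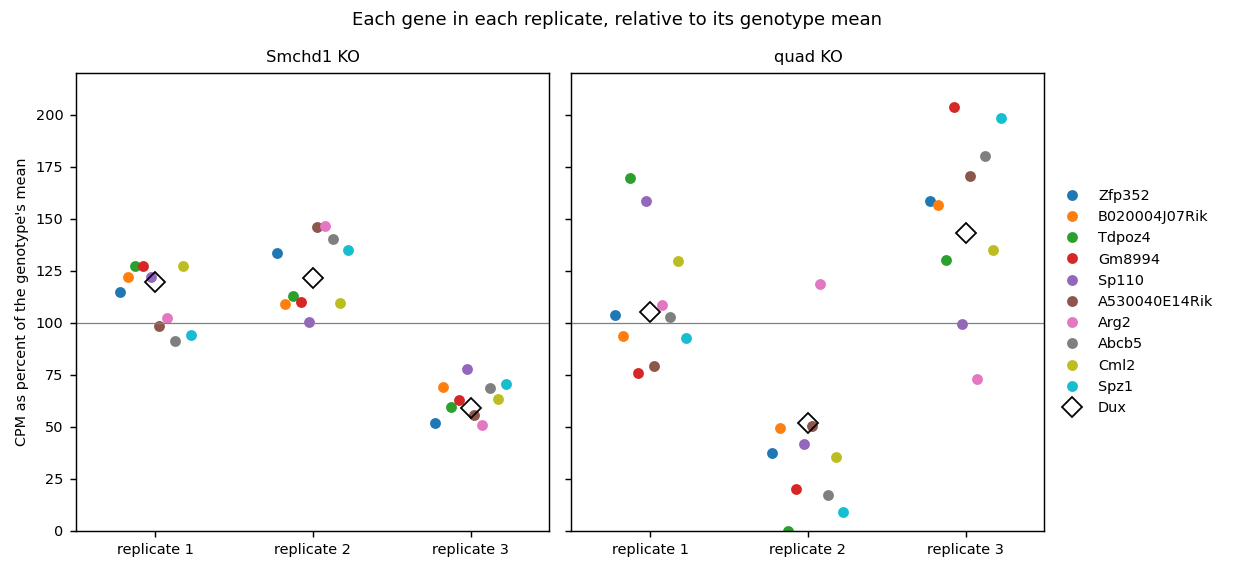
CPM of each gene in each replicate as a percent of its genotype mean, for Smchd1 KO (left) and quadKO (right); open diamonds are Dux and the grey line is the mean. Smchd1 KO replicate 3 has all 10 genes below 100%, and quadKO replicate 2 has 9 of 10 below it, Arg2 being the exception.

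In cells without TET enzymes the deletion of Smchd1 came with no called change in these genes. Of the 10, 5 passed the filter on low values in that table: Zfp352, B020004J07Rik, Cml2, Arg2 and Abcb5. None of the 5 was called in quadKO vs Tet-TKO, where 37.7% of the 14920 tested genes were called, none had an unadjusted p under 0.05, and edgeR called 0 (38.3% of tested genes). With no filter all 10 were tested and limma called 0 (21.5% of genes). Replicates of the genotypes overlapped for all 10. Of tested genes, 25.1% had all quadKO replicates above those of Tet-TKO and 28.2% had all below.

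Zfp352 had 1.39, 1.00 and 1.36 CPM in Tet-TKO and 1.67, 0.601 and 2.55 CPM in quadKO. The quadKO replicates spread on both sides of Tet-TKO, with a log2 change of 0.15 and a 95% interval of −0.63 to 0.94. B020004J07Rik had 0.441, 0.657 and 0.521 CPM and then 0.601, 0.318 and 1.01 CPM (interval −0.43 to 0.62). Cml2 had 0.814, 1.28 and 1.56 CPM and then 1.04, 0.283 and 1.08 CPM (interval −1.14 to 0.24). All 3 quadKO values of Cml2 lay below the Tet-TKO mean of 1.22 CPM, and the interval holds 0. Genes of chromosome 6 as a whole, where Cml2 lies, had median deviations of −0.15 to −0.08 (log2) in quadKO and 0.12 to 0.15 in Tet-TKO. The part of this shift in the values of Cml2 was not tested. Abcb5 had 0.509, 0.795 and 0.492 CPM and then 0.635, 0.106 and 1.11 CPM (interval −0.84 to 0.69). Arg2, with 0.814, 0.830 and 0.810 CPM in Tet-TKO and 1.07, 1.17 and 0.718 CPM in quadKO, had the narrowest interval, −0.19 to 0.51.

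The genes under the filter were Gm8994, Spz1, A530040E14Rik, Sp110 and Tdpoz4. Gm8994 had 0.373, 0.519 and 0.289 CPM in Tet-TKO and 0.267, 0.0707 and 0.718 CPM in quadKO. Spz1 had 0.509, 0.415 and 0.376 CPM and then 0.368, 0.0353 and 0.790 CPM. Tdpoz4 rested on 6 and 12 reads, Sp110 on 15 and 22 and A530040E14Rik on 23 and 18. None of these 5 was called in the fit without a filter.

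**Figure D4:**
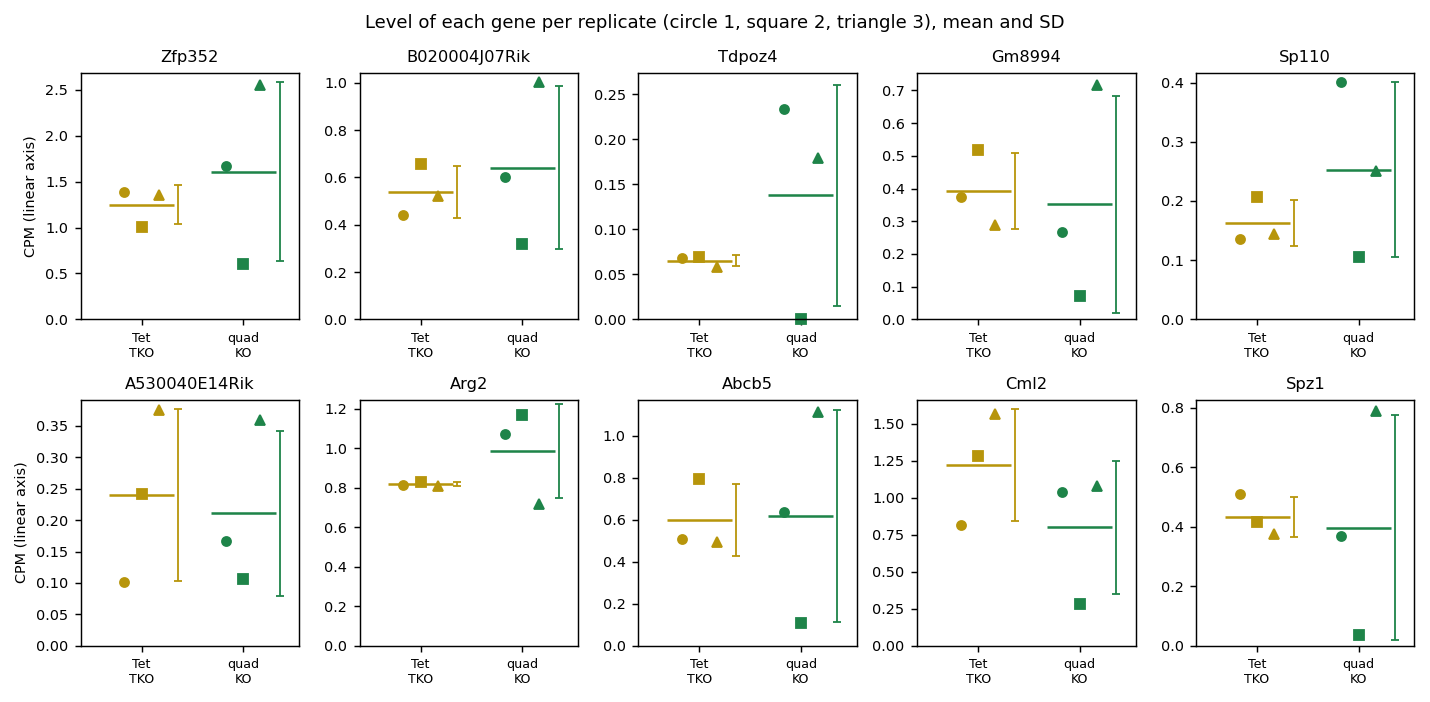
Level in CPM, on a linear axis from 0, of each gene in Tet-TKO and quadKO; points are replicates 1 (circle), 2 (square) and 3 (triangle), long bars are means and error bars are SD. Replicates overlap for all 10 genes, and the quadKO points spread more than those of Tet-TKO in 9 of 10 panels.

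The quadKO replicates differed from each other for nearly every gene of the group. Replicate 2 was the lowest for 9 of 10 genes, with a median of 36.4% of the genotype mean, while it was the lowest for 34.9% of tested genes. Replicate 3 was the highest for 7 of 10, and for 38.5% of tested genes. Dux stood at 0.501, 0.247 and 0.682 CPM and the repeated 2-cell families summed to 68.8, 24.3 and 100.4 CPM, so both had the same order of replicates as the 10 genes together (6.45, 2.79 and 8.76 CPM). The Smchd1 transcript had that order too, at 18.1, 12.2 and 40.0 CPM. Trophoblast markers had the reverse order, at 423, 515 and 267 CPM summed, and Tet-TKO held 218 to 228 CPM. Of 6 trophoblast markers tested, 4 were called higher in quadKO and 1 lower, Gata3 (log2 change −1.39). The part of these markers in the result was not tested. Arg2 was the gene that departed from the pattern, being highest in replicate 2.

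The genes whose profile over the 4 genotypes of the first table was most like a member's were found as those with the smallest root mean square (RMS) difference of centred log2 means. The likeness is a description over 4 genotype means. For Zfp352 they were Dub1 (RMS 0.05), Ubtfl1 (0.08) and Gm4840 (0.10), the first a deubiquitinase gene of the Usp17 family. For Gm8994 they were Gm5662 (0.09), Zscan4c (0.19) and Zscan4d (0.22). For Arg2 they were 2410076I21Rik (0.02), Abcb5 and Tuba3b (0.07 each), and Arg2 was likewise among the 3 nearest to Abcb5. Spz1 and Tdpoz4 were also among each other's 3 nearest. For Sp110 they were Frzb (0.06), Lpar3 (0.09) and Cacna1s (0.10), none of which is on a list of 2-cell genes used here.

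Other genes of the 2-cell programme gave the setting for these values. Of 29 entries of repeated families, 19 were tested in the first table. All 19 were called higher in Smchd1 KO vs WT (0.648% of tested genes) and lower in Double KO vs Smchd1 KO (2.98% of tested genes). Their median log2 change in the former was 2.18 against 1.53 for the 10 genes. Gm5662 (2.87 ± 0.27 SE), Usp17l5 (2.65 ± 0.22 SE) and BB287469 (2.62 ± 0.28 SE) changed most. In Dux KO vs WT 14 of the 19 were called lower (2.35% of tested genes). Of 9 entries of other 2-cell and DUX target genes, 6 were tested, and 1 was called higher in Smchd1 KO, Ubtfl1, which encodes an HMG-box protein (2.14 ± 0.26 SE, limma adjusted p = 0.0016). Zfp951 (1.77 ± 1.10 SE) and Lmx1a (1.23 ± 0.30 SE) came next in size and were not called. These lists were chosen with results of the same samples known and are not independent evidence. A gene could also enter the test through Smchd1 KO alone, so the counts are no support of their own.

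Relatives of the 10 genes were read from a list of 20 entries. Of these 8 were tested and 2 were called higher in Smchd1 KO (0.648% of tested genes), where the median log2 change of the 8 was 0.13. Both called genes entered the test only through Smchd1 KO, so these calls are no support of their own. One was Zfp353, the nearest relative of Zfp352, with 0.388, 0.278 and 0.400 CPM in WT against 1.73, 2.04 and 0.915 CPM in Smchd1 KO (log2 change 1.23 ± 0.24 SE, limma adjusted p = 0.0358). It was called lower in Double KO vs Smchd1 KO (−1.62 ± 0.24 SE, 0.0040). The other was Sp140, a paralogue of Sp110 that lies 1.56 kb from it in GENCODE M21, with 0.0932, 0.0239 and 0.0660 CPM in WT against 0.737, 1.07 and 0.591 CPM in Smchd1 KO (log2 change 1.20 ± 0.21 SE, limma adjusted p = 0.0172). The RefSeq window of Sp110 printed above lies beyond the near end of Sp140. A transcript from that start would overlap Sp140, so reads of these genes may not be told apart. Sp140 had 0.248, 0.428 and 0.713 CPM in Double KO, which overlapped Smchd1 KO, and the change between these genotypes was not called (−0.44 ± 0.21 SE, 0.20). Its Smchd1 effect did not pass the test for a difference between cells with and without Dux either (−0.34 ± 0.29 SE, 0.56). The transporters Abcb1a (−0.01), Abcb1b (−0.01), Abcb4 (0.21) and Abcb9 (0.21), the acetyltransferase gene Cml1 (0.04) and the POZ-domain gene Spop (−0.38) were not called.

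Neighbours in the genome were read as a check of position. The nearest tested genes on both sides of each gene, 18 in all, had a median log2 change of 0.04 in Smchd1 KO vs WT. Their changes ran from −0.27 to 1.20, and 10 of the 18 were positive. Counting neighbours that are not themselves among the 10, 2 were called: Sp140 and, 467 kb from Tdpoz4, Gm4778 (1.06 ± 0.17 SE, limma adjusted p = 0.0115). Of all tested genes 0.648% were called higher. Cdkn2b (1.11) beside Zfp352, Serinc5 (0.97) beside Spz1, and C130073F10Rik (0.86) and Lepr (0.58) beside B020004J07Rik were not called. Sp110 and A530040E14Rik are each other's nearest tested gene on one side, 463 kb apart. For Gm8994, Grin2b (−0.12) and Atf7ip (−0.07) on its sides were not called, and for Arg2 neither were Pigh (−0.04) and Vti1b (−0.03), the latter the gene that overlaps it.

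The genes that carry the 45-base run in a RefSeq upstream window did not all move. Of the 17, 7 could be matched to the tables by name. Beside Sp110, B020004J07Rik and Gm8994 these were Arih2, Sgk1, Gm12790 and Gm4340. Arih2 (log2 change −0.13 ± 0.14 SE, limma adjusted p = 0.66) and Sgk1 (−0.13 ± 0.31 SE, 0.86) were not called in Smchd1 KO vs WT, and each holds the run in 1 window only, of 2 and 6. Gm12790 was under the filter, with 0, 0.0119 and 0.00708 CPM in WT. Its Smchd1 KO replicates held 0.183, 0.364 and 0.181 CPM, and Dux KO and Double KO held 1 read each. Gm4340 had 1 read in WT, 9 in Smchd1 KO and 0 in Dux KO and Double KO.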

How the data were processed

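Ribosome-depleted total RNA was sequenced (KAPA RNA HyperPrep with RiboErase, per the labels' protocols). The submitters' processing notes name Trim Galore, STAR 2.5.1, limma 3.38.2 and mm9. The counter and annotation are not given in the sources used here. The authors deposited 2 tables of normalized signal in counts per 1e6 of an effective library size (CPM), with columns summing to 906871 to 1054029. Values under 200 reads came out whole within 0.1 read in 100% of cases, so reads could be recovered. There were 3 columns of no listed sample, which were not used. Column names of Smchd1 KO carry no replicate, and its 6 columns were joined into 3 pairs of technical runs by the smallest noise between them.

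Technical runs were averaged. The main test was limma 3.58.1 (R 4.3.3) with a trend on log2(CPM + 0.5), fitted per table to genes that reached 0.5 CPM in 3 or more samples, two-sided, with Benjamini-Hochberg adjustment over all tested genes and a threshold of 0.05. All 10 genes were tested among the genotypes with Tet genes and 5 between Tet-TKO and quadKO. The unit turned out as scaled signal, and edgeR 4.0.16 on the recovered reads was an alternative. Gene reads per library were 11.4e6 to 74.4e6. Counting intervals are exact at 95% and cover counting error only. The tests were tried on simulated data, with changes only in genes of higher mean level than most of the 10 and equal dispersion in all genotypes. The trial therefore does not cover genes as low as most of these. The reference (GENCODE M21, GRCm38) differs from mm9 and served for names, neighbours and RefSeq promoter windows only, with coordinates given in GRCm38.

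Members and gene lists were chosen with earlier results of these data known. Named were all 10 genes in every comparison, the targeted genes, the 3 tested genes of each 2-cell list with the largest absolute change in Smchd1 KO vs WT, all tested relatives, and for up to 4 members the 3 genes of most similar profile. Neighbours and genes with the shared promoter run were added after values were seen. Alternatives were other pseudocounts, no filter, quantile normalization, edgeR, chromosome centring, single technical runs, the replicate block and leaving out each replicate.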

Additional observations from a re-analysis of the deposited data

Results flagged for a closer look

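The change with Smchd1 deletion was compared between cells with and without Dux by a test of the difference itself (limma interaction term, log2(CPM + 0.5) scale). It called 4 of the 10 genes, against 0.358% of tested genes called lower. The difference was −2.53 for Gm8994, −2.06 for Zfp352, −1.79 for A530040E14Rik and −1.36 for Spz1. In each case 3 of 3 Smchd1 KO replicates lay above all WT replicates, which held for 28.2% of tested genes. No such separation was seen between Double KO and Dux KO, where it held for 3.05% of tested genes. Dux KO held no reads of these 4 genes and Double KO held 0 to 3, so a separation could hardly appear there. The difference passed the test at 0.5 CPM added and did not with edgeR, which called 0 of the 10 and gave the opposite sign for Gm8994 (1.47) and A530040E14Rik (0.17). Zfp352 and Spz1 had no read in Dux KO or Double KO, so their difference is the rise from WT to Smchd1 KO with its sign turned. Zfp352, A530040E14Rik and Spz1 entered the test only through Smchd1 KO, so these calls are no support of their own.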

How the results depend on the processing

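Counts are of the 10 genes called. In Dux KO vs WT (1), 4 were called with a pseudocount of 0.1, with edgeR and with edgeR without a filter, and 3 with WT technical run 1 alone. In Double KO vs WT (1), 3 were called with a pseudocount of 0.1 and with edgeR with or without a filter. For the difference of Smchd1 effects (4), 0 were called with a pseudocount of 0.1 and with edgeR with or without a filter, 1 with a pseudocount of 2 and 2 with WT technical run 2 alone. There edgeR gave the opposite sign for A530040E14Rik (0.17, and 0.13 without a filter) and Gm8994 (1.47, and 1.43 without a filter); the cause was not tested. Leaving out each replicate gave 2 to 10 in Smchd1 KO vs WT, 2 to 10 in Double KO vs Smchd1 KO, 1 to 3 in Dux KO vs WT, 1 to 2 in Double KO vs WT, 0 to 8 for the difference and 0 throughout in Double KO vs Dux KO and quadKO vs Tet-TKO. The lowest of these counts for Smchd1 KO come from the filter, which then tests fewer of the genes; with the tested genes kept, a choice made after seeing the data, the ranges were 6 to 10 and 9 to 10. With replicate number as a replicate block, 1 was called in Dux KO vs WT, 1 in Double KO vs WT, 0 in Double KO vs Dux KO and 0 in quadKO vs Tet-TKO. Same-numbered samples correlated at 0.0311 to 0.169 in WT and Dux KO (different numbers −0.199 to 0.0667), 0.0560 to 0.233 in WT and Double KO (−0.129 to 0.0565), −0.135 to 0.469 in Dux KO and Double KO and −0.0299 to 0.0166 in Tet-TKO and quadKO. Not every pair was over 0.1, so the numbers were not taken to pair samples. Smchd1 KO columns carry no number. Over all genes, 144 were called in Smchd1 KO vs WT, 230 with edgeR and 492 with edgeR without a filter. In Dux KO vs WT 644 were called, 338 without a filter, 344 with quantile normalization, 978 with edgeR without a filter, 80 in a fit without Smchd1 KO and 32 in that fit with the replicate block. In Double KO vs WT 255 were called, 152 with quantile normalization, 555 with edgeR, 743 with edgeR without a filter, 522 and 157 with WT technical run 1 or 2 alone, 45 in a fit without Smchd1 KO and 25 in that fit with the replicate block. In Double KO vs Smchd1 KO 709 were called and 1096 with edgeR without a filter. In Double KO vs Dux KO 2 were called, 12 without a filter and 4 with chromosome medians centred, and for the difference 83, 9 with a pseudocount of 0.1 and 7 with edgeR. Leaving out each replicate moved the counts over all genes to 37 to 387 in Smchd1 KO vs WT, 2 to 2797 in Dux KO vs WT, 2 to 3015 in Double KO vs WT, 50 to 2428 in Double KO vs Smchd1 KO, 0 to 146 in Double KO vs Dux KO, 0 to 1216 for the difference and 3329 to 7638 in quadKO vs Tet-TKO, so the shares of all genes called move as much. Depth limits the genotypes without Dux, where each of the 10 genes rests on 0 to 20 reads.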
